A study of Homo sapiens with 19 samples.

Results

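Microexons were taken as skipped exon (SE) events whose alternative exon was no longer than 27 nt, found by subtracting the exon's start from its end in the 3 deposited SE tables. The rule gave 709 events, which described 516 distinct exons in 468 genes, out of 73389 SE events, 52720 exons and 11705 genes. The cells were HMLE/Twist-ER, a TERT-immortalized human mammary epithelial line that carries the transcription factor Twist fused to ER, so that tamoxifen switches Twist on and drives the epithelial–mesenchymal transition (EMT). All 4 RNA groups carried this fusion and a lentiviral shRNA, either a non-specific one (control) or one against AKAP8 (KD). EPI control and EPI KD cells (3 libraries each) received no tamoxifen, and MES control (3 libraries) and MES KD cells (2 libraries) received 20 nM until they looked mesenchymal, so tamoxifen and Twist activity cannot be told apart here. The study called the libraries of a group biological replicates, the labels do not name the shRNA, and every culture came from 1 parental line. Binding of AKAP8 to RNA was mapped by eCLIP in HMLE/Twist-ER cells, with 2 AKAP8 and 2 input libraries per state. These EPI and MES cells received 0 and 20 nM tamoxifen, and the study states no shRNA for them. The 3 comparisons asked what AKAP8 loss did to splicing in EPI cells, what it did in MES cells, and what EMT did in control cells.

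A microexon is too short for the usual exon definition, in which splicing factors bound at both ends and inside the exon help each other. Its recognition depends on sequence in the neighbouring introns, above all a strong pyrimidine tract, and in neurons on the activator SRRM4 (nSR100), which acts against the repressor PTBP1. Many microexons add a few residues to a protein without shifting the frame, often at surfaces that bind partners in endocytosis, adhesion and cytoskeletal control. Muscle cells use some microexons too.

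The exons called after knockdown and those with the largest differences between EPI and MES control cells are shown first, because the comparisons turn on them. Bases are from the GRCh37 genome, 5′ to 3′ on the strand of the gene, with the exon in capitals, 45 intronic bases before it and 20 after it in lower case, and positions that refer to the exon. For RPS24, whose exon is annotated as untranslated, 4 bases are shown on each side. That exon starts with TGA, and whether this serves as a stop codon was not tested.
FLNA, 24 nt, chrX:153585619-153585642, minus strand: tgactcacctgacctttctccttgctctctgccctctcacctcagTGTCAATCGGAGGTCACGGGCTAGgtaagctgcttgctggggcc
MARK3, 27 nt, chr14:103964839-103964865, plus strand: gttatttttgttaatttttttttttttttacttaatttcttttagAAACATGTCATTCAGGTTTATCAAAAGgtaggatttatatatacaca
UGGT1, 24 nt, chr2:128913966-128913989, plus strand: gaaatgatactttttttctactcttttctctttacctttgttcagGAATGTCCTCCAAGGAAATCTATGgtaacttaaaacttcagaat
VPS29, 12 nt, chr12:110937340-110937351, minus strand: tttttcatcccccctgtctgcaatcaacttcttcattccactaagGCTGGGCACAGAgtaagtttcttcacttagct
DNM2, 12 nt, chr19:10919245-10919256, plus strand: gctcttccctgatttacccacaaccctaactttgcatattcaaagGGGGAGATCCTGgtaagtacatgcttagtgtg
AP2M1, 6 nt, chr3:183898433-183898438, plus strand: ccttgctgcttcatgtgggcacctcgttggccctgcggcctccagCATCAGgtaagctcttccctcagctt
RPS24, 22 nt, chr10:79799962-79799983, plus strand: tcagTGAGCTGGAGATTGGATCACAGgtat
USO1, 21 nt, chr4:76716489-76716509, plus strand: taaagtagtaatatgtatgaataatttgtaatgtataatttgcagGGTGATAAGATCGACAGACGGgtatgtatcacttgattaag
ANXA6, 18 nt, chr5:150490188-150490205, minus strand: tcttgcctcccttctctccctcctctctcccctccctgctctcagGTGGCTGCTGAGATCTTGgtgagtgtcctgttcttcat
TEAD1, 12 nt, chr11:12900436-12900447, plus strand: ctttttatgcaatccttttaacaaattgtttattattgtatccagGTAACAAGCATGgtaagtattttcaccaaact
ARHGEF10L, 15 nt, chr1:17961043-17961057, plus strand: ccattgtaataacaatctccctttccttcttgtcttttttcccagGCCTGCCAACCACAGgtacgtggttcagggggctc
KIF21A, 21 nt, chr12:39724044-39724064, minus strand: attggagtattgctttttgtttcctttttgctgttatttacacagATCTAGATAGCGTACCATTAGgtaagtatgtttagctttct
MON2, 18 nt, chr12:62959794-62959811, plus strand: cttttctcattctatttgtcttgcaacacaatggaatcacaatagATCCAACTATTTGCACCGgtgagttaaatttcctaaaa

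In these 13 sequences the 30 bases before the exon differed widely in their share of C and T. It was 90% at ANXA6 and ARHGEF10L, 83.3% at FLNA, MARK3 and UGGT1, and 46.7% at USO1 and MON2. All 13 exons were entered by AG and left by GT. AP2M1, with 6 nt, was the shortest exon called in any comparison.

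Lengths ran from 3 to 27 nt with a median of 22 nt, and multiples of 3 outnumbered the lengths beside them. Of the 516 exons, 339 (65.7%) kept the reading frame by length, against 42.1% of all 52720 SE exons. The share was highest among the shortest, at 83.3% of 24 exons of 3 to 9 nt, 77.9% of 145 exons of 10 to 18 nt and 59.4% of 347 exons of 19 to 27 nt. In the annotation 458 exons were coding, 12 coding in part, 25 untranslated and 21 in noncoding transcripts. A multiple of 3 was found for 69.4% of the coding exons and for 32.0% of the untranslated ones. Just inside the limit, at 25 to 27 nt, 60.5% of 147 exons were multiples of 3 and 4.76% of 147 tested events were called between the states. Just outside it, at 28 to 30 nt, these were 59.1% of 176 exons and 1.94% of 155 events. The median PSI in EPI control cells was 98.3% inside and 98.2% outside the limit.

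**Figure D1:**
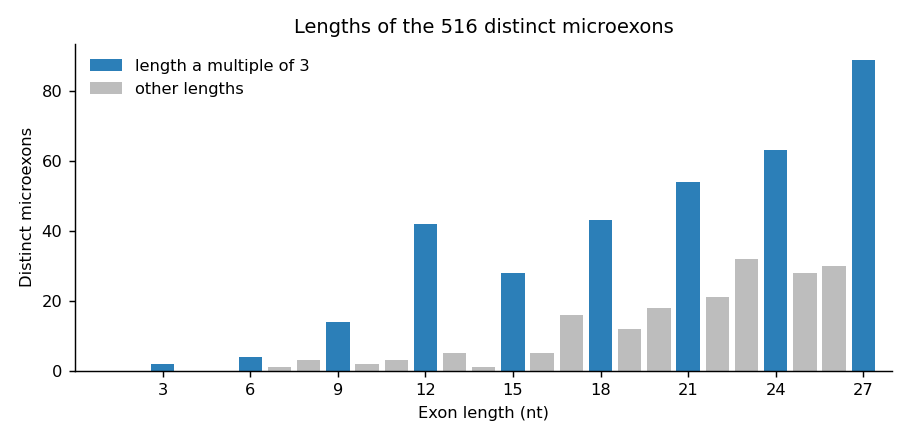
Number of distinct microexons (y axis) at each exon length in nt (x axis), with lengths that are multiples of 3 in blue and other lengths in grey. The blue bars at 12, 18, 21, 24 and 27 nt hold 42, 43, 54, 63 and 89 exons, and no grey bar exceeds 32.

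The flanking introns of microexons were shorter than those of SE exons in general, and the 30 bases before the exon were richer in pyrimidines. The median C and T share of the 30 bases before the exon was 70.0% for microexons and 63.3% for all SE exons, the median upstream intron 1382.5 nt against 2254 nt, and the median downstream intron 1346.5 nt against 2016.5 nt. Pyrimidine hexamers bound by PTBP1 (TTCTCT or CTTCTC, which overlap, on the strand of the transcript) occurred within 100 nt upstream of 27.1% of microexons and 15.9% of all exons. On either side of the length limit this share was alike, at 21.8% of exons of 25 to 27 nt and 22.7% of exons of 28 to 30 nt. For GCATG, the core of the RBFOX motif, within 200 nt downstream the shares were 21.5% and 16.9%. TGC within 50 nt upstream, part of the element bound by SRRM4, stood before 60.9% and 55.9%. ACTAA, the core of the QKI site, lay within 200 nt downstream of 14.7% and 13.6%. GGG is the core of the guanine-stretch motif that the study reported for AKAP8, and also of hnRNP F and H sites. It was rarer around microexons, with 48.6% against 54.7% in the 100 nt upstream and 58.5% against 63.4% in the 100 nt downstream. These letters are descriptions of the windows and not mapped binding sites.

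Read depth set which microexons could be compared. The libraries held 31258177 to 40852217 SE junction reads, of which 176034 to 234056 fell on microexon events. Percent spliced in (PSI) is the share of transcripts that include the exon, computed from inclusion and skipping junction reads divided by their effective lengths. An event entered the test when its libraries averaged 20 or more junction reads, which kept 449 microexon events in the EPI knockdown comparison, 397 in MES and 456 in EMT and left out 133, 120 and 118. By exon, 423 of 516 were tested at least once and 93 never. The median tested microexon event in the EMT comparison had 141.8 reads per library, against 216.3 for all SE events. The p-values do not measure the spread between these libraries alone. They also rest on read counts and on a dispersion drawn towards a trend over all SE events. Very small values therefore reflect depth and this shared trend as well as the few libraries of a group. Reads were not counted with molecular identifiers. EPI KD library 2 lay farthest from its group, with a median absolute deviation of 0.47 on the log2 scale over gene values, against 0.16 to 0.28 for the other 10 libraries. Library numbers here are places in the tables' lists.

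In EPI control cells 190 of 377 tested microexons (50.4%) had a PSI above 90%, against 84.5% of all SE exons. Another 22.5% of microexons and 9.30% of all exons lay between 10% and 90%, and 27.1% and 6.197% below 10%. The median PSI was 90.3% for microexons and 99.5% for all exons. The pattern differed by frame. Of the 260 microexons whose length is a multiple of 3, 86 (33.1%) were below 10% PSI, 74 (28.5%) in between and 100 (38.5%) above 90%. Of the 117 with other lengths, 90 (76.9%) were above 90%. Exons from 28 nt to under 300 nt were mostly above 90% whether they kept the frame (83.3% of 15806) or not (86.1% of 21189). The other groups had similar shares between 10% and 90%, with 22.2% of microexons in EPI KD, 25.2% in MES control and 25.5% in MES KD cells.

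**Figure D2:**
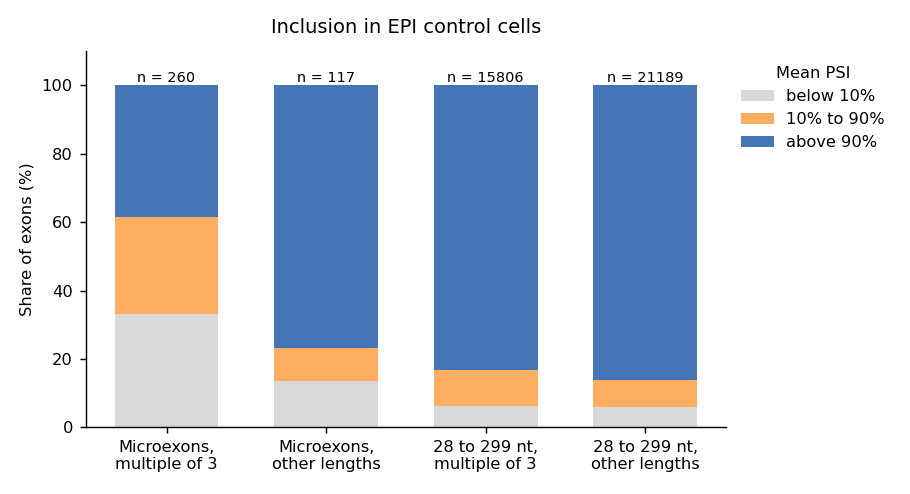
Share of exons in percent (y axis) with a mean PSI below 10%, from 10% to 90% and above 90% in EPI control cells, for microexons and for exons from 28 nt to under 300 nt, each split by whether the length is a multiple of 3 (x axis, 1 event per exon). Exons above 90% make up 38.5% of the first bar, against 76.9%, 83.3% and 86.1% of the others.

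EMT changed the inclusion of 31 microexons, 21 of which were more included in MES control cells and 10 less. They came from 32 called events, 7.02% of the 456 tested, against 1.36% of all 49330 SE events. A call required a Benjamini-Hochberg adjusted p under 0.05 over all SE events in a quasi-binomial test with limma-moderated dispersion, and a PSI difference of at least 10 percentage points. By direction 22 events rose (4.82%, with 0.754% of all SE events) and 10 fell (2.19%, with 0.602%). In bulk RNA a shift within every cell and a shift in the share of cells with either form cannot be told apart, nor can fewer cells of a type and less RNA per cell. The groups did not overlap at 99 microexon events (21.7%, with 10.6% of all). The median absolute difference was 1.20 points for microexons and 0.684 points for all events, and among called microexon events 23.0 points. All but 1 of the 31 exons, namely RPS24, were coding exons with a length that is a multiple of 3. Thus 31 of 296 tested events with a multiple of 3 were called (10.5%), and 1 of 160 events of other lengths (0.625%). By length 3 of 18 events of 3 to 9 nt, 10 of 118 of 10 to 18 nt and 19 of 320 of 19 to 27 nt were called.

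**Figure D3:**
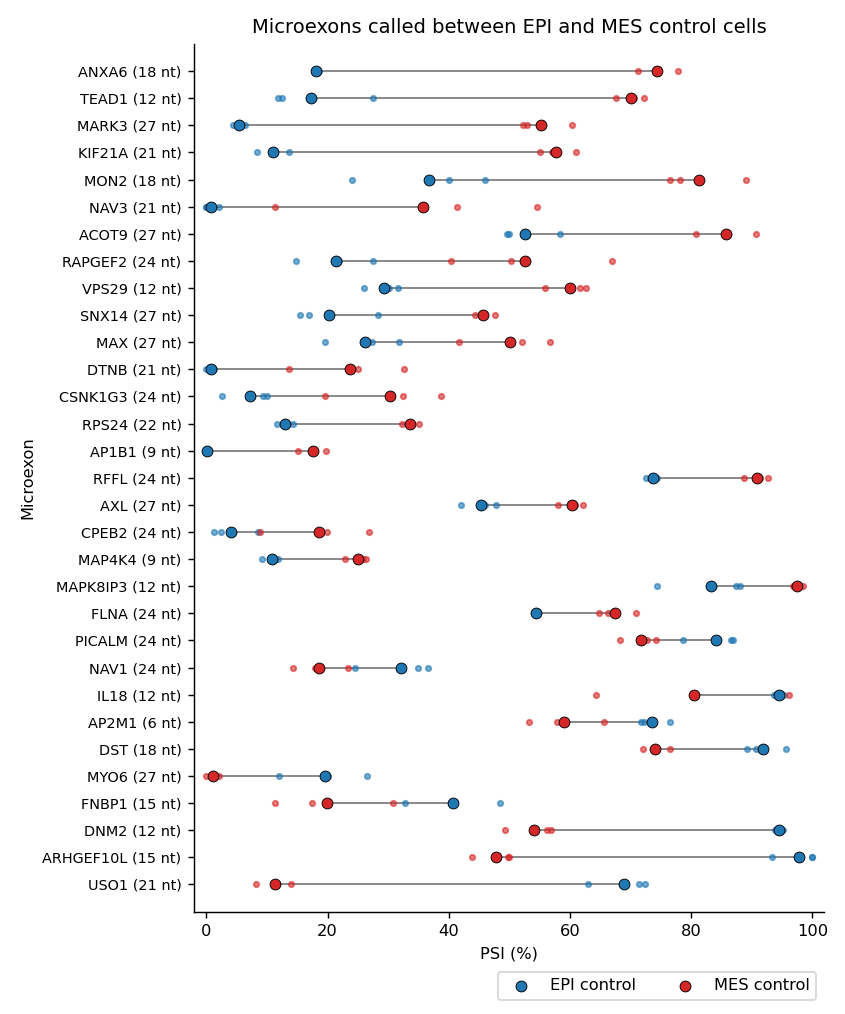
PSI in percent (x axis) of the 31 microexons called between EPI control (blue) and MES control (red) cells, ordered by difference (y axis), where small points are libraries and large points group means of 3 libraries. The top 21 exons were more included in MES and the bottom 10 less, from ANXA6 (18.1% to 74.4%) to USO1 (69.0% to 11.3%).

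USO1, the p115 tether that docks vesicles at the Golgi, had 72.4%, 71.5% and 63.0% inclusion of its 21 nt exon in EPI control and 11.7%, 13.9% and 8.18% in MES control libraries. It fell by 57.7 points (adjusted p = 3.3e-49, quasi-binomial test with limma moderation), the largest microexon difference of EMT. Limma on the logit of PSI gave the USO1 exon an adjusted p of 0.000363. DNM2, the dynamin that cuts endocytic vesicles from the membrane, included its 12 nt exon at 94.6%, 93.9% and 95.2% in EPI control and 56.9%, 56.2% and 49.3% in MES control libraries, a difference of -40.4 points (adjusted p = 1.11e-32). The groups were far apart in both genes. VPS29, a retromer subunit that recycles endosomal cargo, moved the other way at its 12 nt exon, from 30.2%, 26.1% and 31.6% to 61.6%, 62.7% and 55.8% (adjusted p = 1.81e-15). AP2M1, the μ subunit of the clathrin adaptor AP-2, went from 76.4%, 71.7% and 72.2% to 53.3%, 57.9% and 65.6% at its 6 nt exon, and PICALM, a clathrin assembly protein, from a mean of 84.0% ± 4.70 to 71.7% ± 3.10 (SD, n = 3 each) at a 24 nt exon. MON2, a scaffold of Golgi and endosome traffic, rose from 46.0%, 24.1% and 40.02% to 89.0%, 76.5% and 78.2% at 18 nt. ANXA6, a calcium-dependent membrane-binding annexin, rose from 18.5%, 17.9% and 17.9% to 71.2% to 77.8%, a gain of 56.3 points (adjusted p = 4.95e-28).

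Of the list of actin, membrane and endocytosis adaptors, 14 microexons in 11 genes were tested and 3 changed with EMT, all less included (AP2M1, DNM2 and PICALM). The median absolute difference of the list was 4.72 points, over 1 event per exon with called events taken first. It cannot be compared with the 1.20 points over all tested microexon events, which had no such choice of events. For this list and those below, the share called was 7.02% of all 456 microexon events and 1.36% of all SE events. The lists are short, and whether any differs from microexons at large was not tested. ABI1, an adaptor of the actin-regulating WAVE complex, stood at 1.35% ± 0.539 in EPI control and 7.22% ± 1.22 in MES control cells at 15 nt (SD, n = 3 each), which passed the adjusted p (0.00147, limma-moderated test) but not the minimum of 10 points. The 2 exons of SPTAN1, the membrane skeleton protein αII-spectrin, had 10.6% ± 5.20 and 2.25% ± 0.691 at the 15 nt exon (adjusted p = 2.5e-08, limma-moderated test) and 87.9% ± 4.22 and 94.8% ± 3.001 at the 18 nt exon (adjusted p = 0.00455), again under 10 points. In MYO5A, a cargo-carrying myosin, the 9 nt exon lay at 71.6% ± 3.73 and 59.4% ± 13.5 (adjusted p = 0.365, limma-moderated test), where the groups came within 1 point of each other without overlap. GOLGA4, a Golgi tether, and ERC1, a vesicle-release scaffold, differed by 3.55 and 3.57 points.

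Among the 9 tested microexons of the microtubule and motor list 1 rose and 1 fell. KIF21A, a kinesin that restrains microtubule growth, had 13.7%, 8.32% and 10.8% inclusion of its 21 nt exon in EPI control and 57.1%, 61.0% and 55.1% in MES control libraries (adjusted p = 1.16e-08). DST, the cytoskeletal linker dystonin, went from 89.2%, 95.6% and 90.7% to 73.8%, 72.0% and 76.5% at 18 nt (adjusted p = 0.000243). The 9 nt exon of the kinesin KIF3A had means of 36.5% ± 8.10 and 56.0% ± 9.19 with no overlap, and with 71.3 reads per library did not pass (adjusted p = 0.273). NAV3, a microtubule plus-end protein outside this list, had 2.14%, 0% and 0% in EPI control and 41.3%, 54.6% and 11.3% in MES control libraries at a 21 nt exon. The MES libraries had 15 to 24 reads there, and the scatter among them was the widest of the 31 exons called with EMT.

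The kinase and phosphatase list held 2 calls among its 10 tested microexons, both towards inclusion. MARK3, a kinase of microtubule-associated and polarity proteins, went from 6.42%, 5.56% and 4.35% to 60.3%, 52.3% and 52.9% at 27 nt, a gain of 49.7 points (adjusted p = 7.34e-46), and was called in 2 events with different flanking exons. MAP4K4, a kinase of the JNK pathway, rose from 10.8% ± 1.46 to 25.04% ± 1.90 (n = 3 each) at 9 nt. CAMK2G, the γ form of calmodulin-dependent kinase II, had 58.6%, 54.3% and 35.7% against 84.9%, 57.4% and 75.5% (adjusted p = 0.268), which overlapped. For the kinases MARK2 (17.7% ± 6.63 and 8.23% ± 5.85) and TNIK (11.4% ± 5.30 and 26.9% ± 23.96), the libraries overlapped too.

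In the GTPase regulator list, with 8 tested microexons, 1 rose and 1 fell. ARHGEF10L, an exchange factor of RhoA, was included at 93.3%, 100% and 100% in EPI control and at 43.8%, 49.8% and 49.9% in MES control libraries at 15 nt, a difference of -49.97 points (adjusted p = 2.93e-05). RAPGEF2, an exchange factor of Rap1, rose from 27.5%, 14.7% and 21.9% to 66.9%, 40.4% and 50.4% at 24 nt (adjusted p = 0.00864), and its paralogue RAPGEF6 went from 4.56%, 0% and 1.73% to 12.9%, 12.8% and 14.2% without passing (adjusted p = 0.132). The 2 called exons rested on 20 to 134 reads per control library. GIT1, a scaffold of GTPase signalling at adhesions, differed by 2.50 points.

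No microexon of the 9 tested in the adhesion and receptor phosphatase list was called. PTPRF, the LAR receptor phosphatase, came nearest, with 11.6%, 12.9% and 10.3% in EPI control and 1.68%, 3.72% and 2.603% in MES control libraries at 27 nt, a difference of -8.901 points (adjusted p = 1.9e-05, limma-moderated test), which misses only the minimum of 10 points. CD47, an integrin-associated surface protein, went from 17.1% ± 5.59 to 8.33% ± 4.87 at 25 nt (adjusted p = 0.00701), likewise under 10 points and without overlap. PTPRS had 58.5% ± 16.5 and 66.5% ± 9.25, and NFASC, neurofascin, 59.6% ± 7.44 and 61.9% ± 7.13, both with groups that overlapped.

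Of 9 tested microexons in the transcription, chromatin and RNA list 1 was called. CPEB2, a translational regulator that binds 3′ ends of mRNAs, rose from 2.47%, 1.25% and 8.59% to 26.9%, 8.85% and 19.9% at 24 nt (adjusted p = 0.0226), where the lowest MES library was close to the highest EPI library. NCOR1, a nuclear receptor corepressor, lay at 31.2% ± 4.96 and 38.6% ± 6.65, and MEF2D, a muscle and neuronal transcription factor, at 14.6% ± 5.11 and 9.69% ± 7.08, both overlapping. Outside the list, TEAD1, the DNA-binding partner of YAP1, included a 12 nt exon at 27.5%, 11.9% and 12.4% in EPI control and 70.5%, 72.2% and 67.6% in MES control libraries (adjusted p = 1.2e-06). It rose by 52.8 points on 23 to 139 reads per library. ACOT9, a mitochondrial acyl-CoA thioesterase, rose from 58.3%, 49.9% and 49.7% to 90.6%, 86.1% and 80.7% at 27 nt.

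The other calls fell outside the rule for named genes and are listed, after their values were seen, to complete the set. AP1B1 (9 nt), CSNK1G3 (24 nt), SNX14 (27 nt), MAX (27 nt), DTNB (21 nt), AXL (27 nt), RFFL (24 nt) and MAPK8IP3 (12 nt) were more included in MES control cells, by 14.2 to 25.4 points. MYO6 (27 nt), FNBP1 (15 nt), IL18 (12 nt) and NAV1 (24 nt) were less included, by 13.5 to 20.9 points. The AP1B1 exon, in a β subunit of the clathrin adaptor AP-1, was almost absent from EPI control cells, at 0.320%, 0% and 0%, and reached 17.9%, 19.7% and 15.1% in MES. The IL18 exon was the only called one whose groups overlapped, with 95.3%, 94.3% and 93.7% against 64.3%, 80.8% and 96.2%.

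Motif counts of the called exons were small. TGC stood within 50 nt upstream of 18 of the 21 exons that rose with EMT and 5 of the 10 that fell. The PTBP1 hexamers were found upstream of 10 and 3, GCATG downstream of 6 and 2, and ACTAA downstream of 7 and 4. Over all 516 microexons these 4 shares were 60.9%, 27.1%, 21.5% and 14.7%, in the same order. ACTAA lay within 200 nt upstream of 2 and 3 (17.8% of all microexons). GGG lay in the 100 nt upstream of 10 and 5 (48.6%) and downstream of 9 and 5 (58.5%). Whether rising and falling exons differ from each other or from all microexons was not tested. GCATG followed DTNB, FLNA, KIF21A, MON2, NAV3 and SNX14 among the rising exons and FNBP1 and PICALM among the falling ones.

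Before the knockdown comparisons, the targeted gene was checked. Its level was taken as the junction reads summed over its SE events and scaled by library. AKAP8 had scaled values of 243.8, 309.9 and 245.0 in EPI control and 120.7, 98.8 and 124.8 in EPI KD libraries, and 382.3, 195.8 and 247.7 in MES control and 108.3 and 121.9 in MES KD libraries. Every KD library was below every control library. The log2 fold change was -1.20 ± 0.248 (SE) in EPI and -1.20 ± 0.278 in MES, with adjusted p = 0.0664 and 0.0322 in limma over 9016 genes. The state markers followed the labels, with CDH1 (E-cadherin) lower and VIM (vimentin), FN1 (fibronectin) and ZEB1 higher in MES control cells, by -4.34, 1.77, 1.86 and 4.29 on the log2 scale.

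In EPI cells knockdown changed 4 microexons, 3 towards inclusion and 1 away from it. These were 0.891% of the 449 tested events, with 0.0525% of all 47579 SE events called, 0.0231% up and 0.0294% down. FLNA, the actin crosslinker filamin A, had 54.5%, 54.3% and 54.3% inclusion of its 24 nt exon in control and 71.8%, 68.3% and 64.4% in KD libraries, 13.8 points more (adjusted p = 1.23e-05, limma-moderated quasi-binomial test). MARK3 rose from 6.42%, 5.56% and 4.35% to 24.7%, 13.7% and 15.5% (adjusted p = 7.78e-06). UGGT1, the endoplasmic reticulum enzyme that marks misfolded glycoproteins for another folding cycle, went from 79.1%, 78.3% and 83.2% to 96.1%, 97.5% and 95.2% at a 24 nt exon (adjusted p = 0.000169). In these 3 genes each KD library lay above each control. VPS29 fell from 30.2%, 26.1% and 31.6% to 18.5%, 13.6% and 19.5% at 12 nt (adjusted p = 0.0191), again without overlap. Another event of this VPS29 exon moved by -1.23 points. Groups did not overlap at 38 of the 449 events (8.46%), with 5.66% over all SE events. Another 2 exons passed the adjusted p but moved by less than 10 points, namely AP2M1 with 7.98 points (adjusted p = 0.0205) and RPS24 with 4.86 points (adjusted p = 0.00325). The calls of FLNA and UGGT1 remained without any 1 library, while VPS29 lost its call without EPI control library 1 or 3 or EPI KD library 2 or 3 (adjusted p = 0.402, 0.361, 0.203 and 0.0724), and MARK3 moved 9.18 points without EPI KD library 1. When limma was run on the logit of PSI, no SE event was called, and the 4 had adjusted p = 0.65 to 0.908.

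In MES cells knockdown also changed 4 microexons, 3 up and 1 down, 1.01% of 397 tested events, with 0.0479% of 43832 SE events called, 0.0114% up and 0.0365% down. This comparison set the 2 KD libraries against the first 2 of the 3 MES controls, as the deposited table did. FLNA rose from 66.3% and 64.8% to 80.7% and 79.6% (14.5 points, adjusted p = 1.04e-10). AP2M1 rose from 53.3% and 57.9% to 72.2% and 70.3% (15.7 points, adjusted p = 9.59e-07). RPS24, a protein of the small ribosomal subunit, rose from 33.3% and 35.1% to 47.7% and 44.3% at an exon of 22 nt annotated as untranslated (11.8 points, adjusted p = 1.97e-07). Its counts were the highest of the called exons, 5999 to 8110 reads per MES library, but the gene has processed pseudogenes and an exon of 25 nt that overlaps this one, so its PSI is less certain. DNM2 fell by 24.995 points, from 56.9% and 56.2% to 29.4% and 33.7% (adjusted p = 0.00024). No group pair overlapped in the 4 exons, which held for 118 microexon events (29.7%) and for 21.4% of all SE events. An exact permutation test of 2 against 2 libraries cannot go below p = 0.333, so a lack of overlap says little here. FLNA was the 1 exon still called without MES control library 1, where AP2M1, RPS24 and DNM2 had adjusted p = 0.133, 0.25 and 0.146. DNM2 also lost its call without MES control library 2 or MES KD library 1 (adjusted p = 0.154 and 0.146). With all 3 MES controls the 4 stayed called. The logit fit called none (adjusted p = 0.937).

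**Figure D4:**
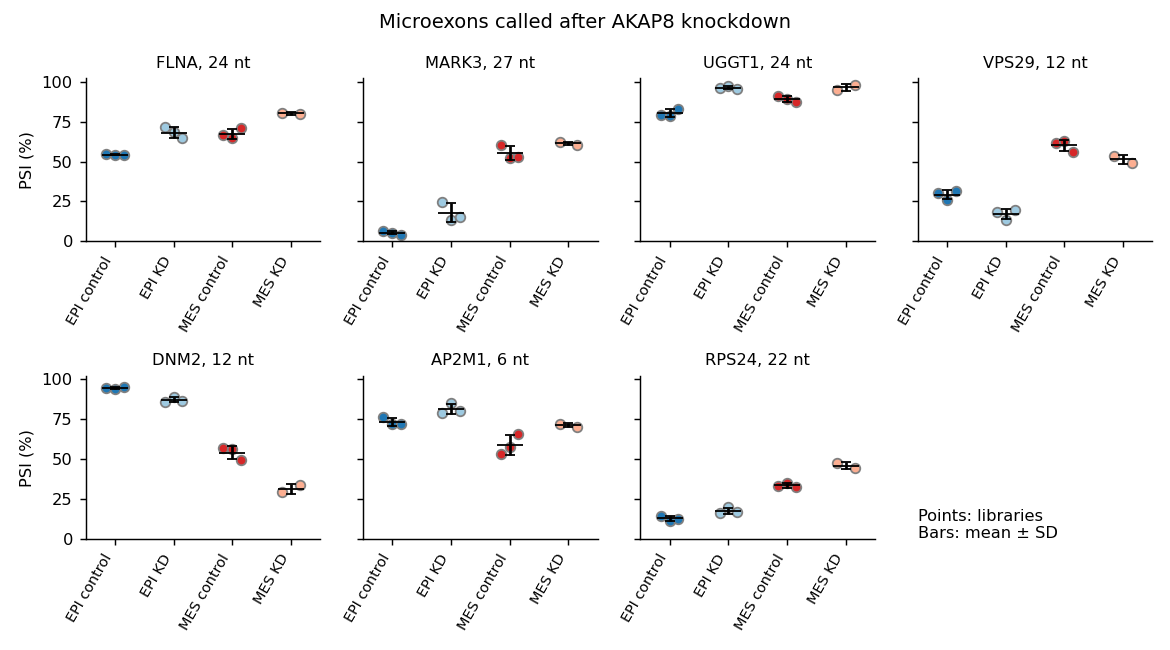
PSI in percent (y axis) of the 7 microexons called after knockdown in EPI or MES cells, in each of 4 groups (x axis), where points are libraries and bars the mean ± SD (n = 3, n = 2 in MES KD). FLNA climbs from 54.3% in EPI control to 80.1% in MES KD cells, and DNM2 drops from 94.5% to 31.5%.

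The values of the exons called after knockdown are set side by side with those of EMT, where the same control libraries serve in the comparisons, so that they are not independent. FLNA rose in each comparison, by 13.8 points in EPI KD, 14.5 in MES KD and 13.0 in EMT. MARK3 had differences of 12.5, 5.07 and 49.7 points and RPS24 of 4.86, 11.8 and 20.6 points. Other events of these exons differed in EPI and MES cells (3 MES controls). For MARK3 they had 24.3 and 0.546 points, and -4.48 and -3.40 points. For RPS24 another had 10.6 and 1.06 points. DNM2 had differences of -7.42, -24.995 and -40.4 points. AP2M1 was higher after knockdown, by 7.98 and 15.7 points, and -14.5 points with EMT. VPS29 was the reverse, at -12.1 and -10.8 points after knockdown and 30.8 with EMT. This held for the event shown, as another event of the VPS29 exon had -1.23 points in EPI and 7.40 points in MES cells (3 MES controls). UGGT1 had differences of 16.1, 6.48 and 8.83 points. Of the EMT exons not called after knockdown, KIF21A went from 13.7%, 8.32% and 10.8% to 27.5%, 40.9% and 23.1% in EPI KD libraries (adjusted p = 0.336), and ARHGEF10L from 43.8% and 49.8% to 18.3% and 34.3% in MES KD libraries (adjusted p = 0.812). USO1 had 5.09% and 3.83% in MES KD libraries, against 11.7% and 13.9% in the controls (adjusted p = 0.323). These examples moved the same way as with EMT, and other uncalled exons did not. TEAD1, which rose with EMT, had -13.7 points in EPI and -17.1 points in MES cells after knockdown. NAV3, which also rose with EMT, had 2.48 and -26.4 points. The MES values of TEAD1 and NAV3 use 3 controls. The direction over all EMT exons was not tested.

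Whether knockdown acted differently in the 2 states was tested on all 11 libraries for 340 microexon events. None was called, with 0.00993% of 30197 SE events called. The lowest adjusted p was 0.306 by the limma-moderated quasi-binomial interaction, and 9 events had an unadjusted p under 0.05 with a difference of at least 10 points. This interaction was tested on the log-odds of inclusion, where equal shifts can differ in PSI points. Its p-values do not test the differences in points printed beside them. For FLNA the effect was 13.8 points in EPI and 12.8 in MES (adjusted p of the interaction 0.879). DNM2 had -7.42 and -22.6 points (adjusted p = 0.992) and MARK3 12.5 and 6.19 points (adjusted p = 0.809). DST came closest among the named exons, with 96.4%, 100% and 96.0% in EPI KD libraries, 5.63 points more than control, and 44.5% and 58.3% in MES KD libraries, a difference of -22.7 points (adjusted p = 0.306). Here the MES effects use 3 controls.

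The AKAP8 eCLIP peaks, 24637 in EPI and 30390 in MES cells, mark RNA crosslinked to AKAP8 and enriched over input, in lists merged over 2 replicates per state. All listed peaks were used here, of which 21665 in EPI and 26228 in MES cells passed the study's cutoffs for high-confidence binding sites. A peak on the same strand within 1000 nt was present for 21 microexons in EPI (4.07%, with 3.04% of all SE exons) and 14 in MES cells (2.71%, with 2.15%). In total 23 exons had one in either state and 12 in both. None of the 32 microexons called in any comparison had such a peak. Among the named exons only the 18 nt exon of SPTAN1 did, in MES cells, at 564 nt from the exon. Its log2 of IP over input was 1.36, which is below the study's cutoff. The peak lists hold no value per replicate, so these counts have no error.

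The factors that act on microexons were followed through the same junction reads. SRRM4 and SRRM3, the neuronal activators, had no value, as had RBFOX1, RBFOX3, CELF2, NOVA1 and NOVA2, which leaves 27 of 34 listed regulators. With EMT 7 of the 27 changed at an adjusted p under 0.05 in limma (25.9%, with 23.9% of 9016 genes), 4 up and 3 down. KHDRBS3 (SLM2), a STAR-family splicing factor, rose from a mean scaled value of 41.5 to 686.9 (log2 fold change 4.02 ± 0.278 SE, adjusted p = 6.17e-07). QKI, which binds ACTAA elements, rose from 1076.7 to 2236.1 (1.06 ± 0.176), and HNRNPM and MBNL1 had changes of 0.70 ± 0.166 and 0.80 ± 0.240. The epithelial factors ESRP1 and ESRP2 changed by -4.05 ± 0.259 and -3.45 ± 0.201, and MBNL2 by -0.95 ± 0.309. PTBP1 had means of 8951.8 and 8149.4 (-0.14, adjusted p = 0.538), and its neuronal paralogue PTBP2 18.5 and 43.3 (adjusted p = 0.174). After knockdown no regulator passed in EPI cells (0.255% of genes did), and in MES cells only AKAP8 itself (4.16% of genes). Without EPI KD library 2 the counts were 13 with EMT, 1 in EPI (QKI) and 5 in MES cells.

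**Figure D5:**
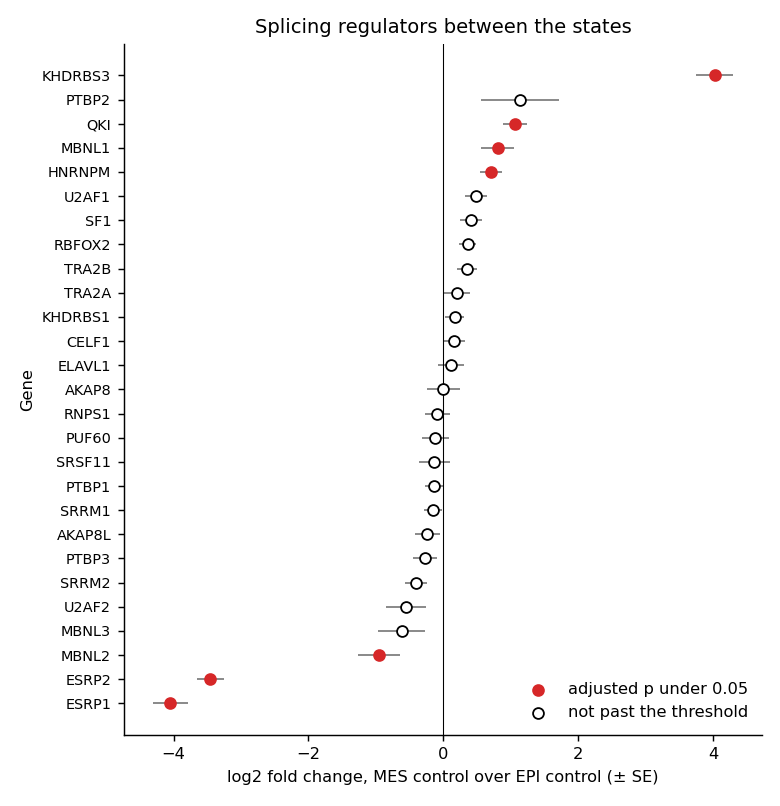
log2 fold change between MES control and EPI control cells (x axis, ± SE) of 27 splicing regulators (y axis), from junction reads summed by gene over 3 libraries a group. Filled red points passed an adjusted p under 0.05, which were KHDRBS3, QKI, MBNL1 and HNRNPM on the right and MBNL2, ESRP2 and ESRP1 on the left.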

How the data were processed

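Poly(A) RNA was sequenced in paired, stranded libraries, aligned by the authors to GRCh37 with STAR 2.6.1a (unique reads, junction overhang of at least 8 nt, or 3 nt if annotated) and counted with rMATS over Gencode v24. The deposited tables give junction read counts per library. The authors' PSI (6 columns), p-values and FDR were not used, nor were the other event types and the gene table. For the eCLIP peaks, the deposited values are a log2 enrichment of IP against input and a −log10 of the p-value, as the authors made them.

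PSI was recomputed, with effective lengths of exon length plus 98 nt and 99 nt. A short exon must be spanned within a read, so inclusion reads near the overhang limits may be missed. Reads of each event were tested with a likelihood-ratio F test, with dispersions moderated by limma 3.58.1 (squeezeVar, robust trend, floor of 1) in R 4.3.3, over all SE events. The test was also run on data simulated at the dispersions that the same fit gave. Such data cannot show how it behaves under the real spread between libraries. Gene values were scaled by median-of-ratios size factors and tested on log2(value + 1) if at least 10 in 2 libraries, and SE events share reads. Exons were placed in Gencode v44 lifted to GRCh37. Every distinct microexon called was eligible for naming, at most 12 per comparison by size of the PSI difference, with tested members of 6 role lists whose PSI lay between 5% and 95% in some group. Where an exon had several events, the values are of 1 event unless stated. Called events were taken first, then tested ones, then the one with most reads. The members and lists were chosen with earlier results of these data known. EPI control libraries are the same in the EPI and EMT tables (100% of 44899 shared events identical), as are the first 2 MES controls in the MES and EMT tables. An exact permutation test of a single event cannot go below p = 0.1 with 3 against 3 libraries, or 0.333 with 2 against 2.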

Additional observations from a re-analysis of the deposited data

How the results depend on the processing

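The microexon counts kept within 1.5 times of 4 (EPI knockdown), 4 (MES knockdown) and 32 (EMT) events under other read minimums, other PSI cutoffs, other dispersion trends, PSI without length correction and 1 event per exon. Limma on the logit of PSI, which weighs deep and shallow events alike, gave 0, 0 and 20. Of the 39 calls of exons, 15 remained there, all in EMT. Leaving out 1 library at a time gave 3 to 4 events in EPI, 1 to 4 in MES and 25 to 33 in EMT, and 0 to 1 for the difference between the states, where HNRNPC was called without EPI KD library 2 (added after the data were seen). FNBP1, IL18, NAV1, RFFL, CPEB2, RAPGEF2, PICALM, MAPK8IP3 and AXL were the EMT exons that lost their call without some library, and no difference in PSI of a called exon changed sign under any alternative. With 1 MES KD library left, it is assumed to vary like the others. For regulators the same gave 0 to 1 in EPI, 0 to 5 in MES and 5 to 13 in EMT. AKAP8 in MES cells lost its call without EPI control library 1, either MES KD library, or MES control library 3. Microexons with a peak numbered 6 in EPI and 6 in MES cells within 300 nt, and 6 and 2 at a log2 of IP over input of at least 4. No paired analysis was possible because the tables list libraries without replicate numbers. Depth limits the 93 untested exons, and calls on fewer than 50 reads (NAV3, ARHGEF10L, DTNB) rest on few molecules.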

Other observations

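The exons described here were picked after their values were seen. A 26 nt untranslated exon of HNRNPC, which encodes a nuclear RNA-binding protein, had differences of 1.46 points in EPI and -7.91 points in MES cells (adjusted p = 0.306, limma-moderated interaction on the log-odds).

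Of the 23 microexons with an AKAP8 peak within 1000 nt, the 6 nt exon of NSMF in EPI cells had the nearest one, at 36 nt, with a log2 of IP over input of 4.78. The 10 nt exon of RNF4 had peaks in both states, with log2 values of 3.48 and 2.25, and a PSI of 100% in EPI control cells.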
